A study of Mus musculus with 30 samples.

Results

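Wild-type and Irf4-deficient mouse B cells were compared after 3 days of stimulation. The comparison rests on 6 of the 30 arrays of the series, chosen by their titles: 3 of wild-type cells at day 3, and 3 of Irf4-/- cells kept for 3 days without doxycycline, called KO zero DOX. All cells were mature resting B cells from the spleens of C57BL/6 mice of the B1-8i strain, which carries a rearranged immunoglobulin heavy chain gene inserted into its locus. Wild-type mice were Irf4+/+. The KO mice lacked both copies of Irf4 and carried an Irf4 gene that doxycycline switches on, so the KO zero DOX cells had this gene but not the drug, and the labels do not name the promoter that drives it. Stimulated cells of both genotypes received CD40L purified from insect cells, IL-2, IL-4 and IL-5, and each replicate was cells of 1 mouse. Levels are also given for KO cells that received 16 or 100 ng/mL doxycycline for 3 days (low and high DOX), for unstimulated cells of both genotypes (day 0), and for both genotypes after 1 day. The design text states that 2 replicates of each group were handled in parallel and 1 at another time, and does not say which.

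IRF4 is a transcription factor of the interferon regulatory factor family that binds DNA weakly alone and more strongly beside ETS or AP-1 partners. In activated B cells a low amount is associated with germinal centre and class switch genes, and a high amount with the plasma cell program, in which BLIMP1 (Prdm1) represses B cell genes and XBP1 enlarges the secretory apparatus. Plasma cells secrete antibody, and their endoplasmic reticulum (ER) imports, folds, glycosylates and exports immunoglobulin chains.

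The 6 arrays had median intensities between 182.4 and 199.1. Values below are log2(intensity + 16), differences are KO zero DOX minus wild type on that scale with n = 3 arrays per group, and a gene is called changed at an adjusted p under 0.05 in limma's test. Arrays of the same group correlated at 0.9951 to 0.9975 in wild type and 0.9865 to 0.9935 in KO zero DOX, and arrays of different groups at 0.9563 to 0.9713. Of 12183 genes tested, 34.9% were called, 19% higher and 15.8% lower, and the median difference over all genes was 0.0043. At least 2-fold, 1.81% were higher and 0.936% lower. KO replicates 1 and 2 came from males, and KO replicate 3 and every wild-type array from females. With KO replicate 3 as the only KO array, 2346 genes were called in place of 4247, of which 2140 were shared in the same direction. That call rests on 1 KO array, which is assumed to vary like the other groups, and genes named below that are not called with it are listed where the cell division genes end.

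Irf4 was read by 2 probe sets, and neither was lower in KO zero DOX. The set that followed doxycycline read 7.68, 7.34 and 7.49 in KO zero DOX, 7.35, 7.39 and 7.23 in wild type, and 13.53 to 13.66 with high DOX. The set that represents the gene read 11.44, 10.98 and 10.89 in KO zero DOX and 10.88, 10.82 and 10.77 in wild type (difference 0.28, adjusted p = 0.099). On this set all KO arrays lay above those of wild type, but it was not called. The targeted gene therefore gives no check of the labels of these 6 arrays. Defining B cell transcripts were high on all 6 arrays: Ms4a1 (CD20) read 14.03 to 14.06 in KO zero DOX and 13.97 to 13.99 in wild type, and Cd79b, of the B cell receptor complex, 13.93 to 13.97 and 13.84 to 13.93.

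Summed intensities of marker lists for several other spleen cell types were higher on the KO zero DOX arrays, and they are given before the gene groups. Summed over 27 tested myeloid markers, the intensity was 25021 to 36458 in KO zero DOX and 13006 to 13749 in wild type. For 9 NK markers the sums were 6472 to 10880 and 2629 to 3555, and for 8 T cell markers 2805 to 3025 and 2005 to 2204. For 9 platelet markers they were 3955 to 4928 and 2517 to 3051, and for 8 dendritic cell markers 6128 to 6645 and 4217 to 4612. Of the platelet markers 2 were called higher and 7 not (median difference 0.032), and the list's median levels overlapped (8.392 to 8.61 and 7.762 to 8.485). Of the dendritic cell markers 3 were called higher, 1 lower and 4 not (median difference 0.078), and the list's median levels overlapped (8.00 to 8.38 and 8.06 to 8.16). The higher ones include Bst2, which is also in the interferon list. The myeloid, NK, T cell, platelet and dendritic cell sums did not overlap between the genotypes. The erythroid sums did (476 to 610 and 504 to 553), as did those of mast cells and basophils (1671 to 2174 and 1745 to 1776). Ncr1 and Cd3e, defining genes of NK and T cells, are on the array and did not pass the filter on dim probe sets. The NK sum on the KO zero DOX arrays came mostly from Gzma, Nkg7, Prf1 and Eomes, which are also listed below as type 1 effector genes. With high DOX at day 3 the myeloid sum was 11796 to 13240 and the NK sum 2263 to 2981. The dendritic cell sum was 6292 to 7595 and the T cell sum 2223 to 2515, both above wild type. Bst2 read 12.02 to 12.40 on these high DOX arrays and made up most of their dendritic cell sum.

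**Figure D1:**
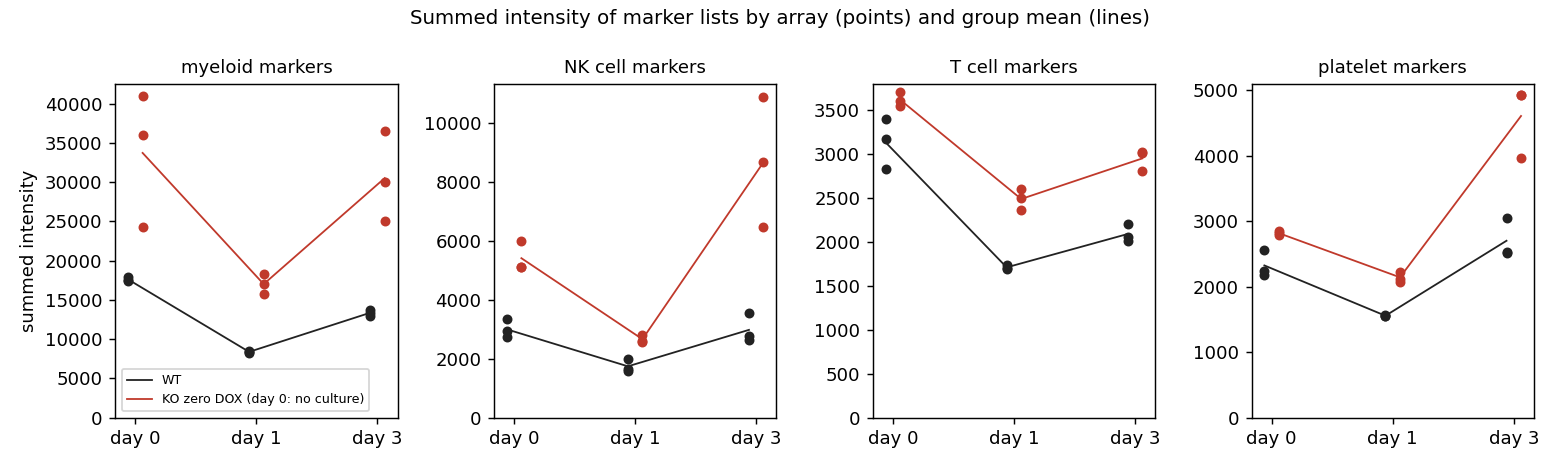
Summed linear intensity of the tested myeloid, NK cell, T cell and platelet markers on each array (points) and the group means (lines) at days 0, 1 and 3, for wild type (black) and KO without doxycycline (red). At day 3 the KO arrays lie above every wild-type array in each of the 4 panels, with myeloid sums of 25021 to 36458 against 13006 to 13749. The NK sum at day 3 in KO comes mostly from Gzma, Nkg7, Prf1 and Eomes, which are also type 1 effector genes.

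Transcripts that mark antibody-secreting cells were lower in KO zero DOX. Jchain, the chain that joins IgM and IgA into polymers, read 6.19, 6.83 and 6.64 in KO zero DOX against 13.47, 13.43 and 13.46 in wild type. The difference was -6.90 (SE 0.31, adjusted p = 7.9e-14), and no fold is given because the KO readings lie below the table's median intensity (188). Crisp3, a secreted cysteine-rich protein, read 4.70, 4.51 and 5.35 against 10.12, 10.69 and 9.77 (-5.34, SE 0.39). For both genes all KO arrays lay far below all wild-type arrays. In bulk samples of this kind, fewer cells of a type and less RNA per cell cannot be told apart.

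Of 18 plasma cell regulators, all of them tested, 12 were lower and 1 higher, with a median of -0.33. Bhlha15 (MIST1), a transcription factor of secretory cells, read 6.25, 6.05 and 6.20 in KO zero DOX and 9.39, 9.34 and 9.21 in wild type (-3.15, SE 0.16, adjusted p = 6.0e-13). Prdm1 read 7.87, 7.89 and 7.53 against 9.46, 9.38 and 9.57 (-1.70, SE 0.20), without overlap. Xbp1 read 12.82, 12.70 and 12.95 against 13.55, 13.49 and 13.57, a smaller difference (-0.72, SE 0.079) that was also without overlap. Eaf2 (-2.18) and Ell2 (-0.78), which act on transcription elongation, were lower by different amounts. Atf6, a sensor of ER stress, differed by -0.84, Arid3a, a DNA-binding factor of B cells, by -0.53, and Pou2af1, the OCT coactivator of B cells, by -0.40. Pou2f2 (OCT2), its DNA-binding partner, was the member called higher (0.31, adjusted p = 0.0062). Ikzf3 (-0.15) and Ern1 (0.17) were not called, and for each another probe set was called in the opposite direction (0.75 and -0.61).

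Of 24 genes of the plasma cell surface and secretion, 20 were tested, 13 were lower and 3 higher, with a median of -0.90. Of the tested members, 2 (Tnfrsf17 and Lag3) had arrays above the table's median only in KO cells and 1 only in wild type, so their passing of the filter was tied to genotype. Sdc1, the proteoglycan CD138, read 7.61, 7.97 and 7.33 in KO zero DOX and 9.99, 9.96 and 9.95 in wild type (-2.33, SE 0.15). Slpi, an inhibitor of secreted proteases, read 8.48, 8.49 and 8.29 against 11.23, 11.06 and 11.13 (-2.72, SE 0.43). Tnfrsf17 (BCMA), the survival receptor of plasma cells, read 5.86, 5.89 and 5.86 against 7.26, 7.46 and 7.43 (-1.51, SE 0.12). Its readings in both groups lay below the table's median intensity (188). Sdc1, Slpi and Tnfrsf17 did not overlap between genotypes. Cd93, a receptor of plasma cells and of early B cells, was lower (-1.95), and so was Epcam, an adhesion protein (-1.18). Cxcr4, the receptor for the chemokine that holds plasma cells in bone marrow, passed the test (-0.84, adjusted p = 0.034) but not without KO replicate 3 (adjusted p = 0.33), wild-type replicate 1 (0.087) or wild-type replicate 2 (0.14). Its arrays overlapped, with KO readings of 10.19, 9.85 and 8.43 and wild-type readings of 10.39, 10.62 and 9.99. Itga4, an integrin subunit (0.70), Ly6d (0.37) and Lag3, an inhibitory receptor (0.25), were the members called higher, the last of them not without KO replicate 1 (adjusted p = 0.058) or wild-type replicate 1 (0.055). Tnfrsf13b (TACI), a receptor for BAFF and APRIL, read 12.31 to 12.39 and 12.24 to 12.38 and was not called (0.03).

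Of 13 listed immunoglobulin genes 4 could be read: the heavy chain constant region genes Ighm, Igha and Ighg3, and the surrogate light chain gene Igll1. Ighm, the mu heavy chain, read 14.05, 14.00 and 13.86 in KO zero DOX and 14.66, 14.65 and 14.72 in wild type (-0.71, SE 0.085). Igha, the alpha chain (-0.34), and Igll1, a surrogate light chain (-0.31), were also lower, Igll1 not without wild-type replicate 3 (adjusted p = 0.060). Ighg3, the gamma 3 chain, was not called (0.29, adjusted p = 0.43), although its KO arrays (10.78, 11.02 and 10.55) all lay above those of wild type (10.41, 10.54 and 10.54).

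Genes of the ER were lower at each step of secretion, and the list medians were nearer to 0 than that of the plasma cell surface genes. Of 23 tested genes of entry into the ER, 18 were lower and 1 higher (median -0.28). Tram2, of the translocating chain-associated family, averaged 8.97 ± 0.044 (SD, n = 3) in KO zero DOX and 10.77 ± 0.068 in wild type, without overlap (-1.80, SE 0.12). Sec61a1, the channel subunit (-0.39), Ssr1 and Ssr4, of the translocon-associated complex (-0.59 and -0.48), and Spcs3, of the signal peptidase (-0.46), were lower by about the median of the list or more. Sec61a2, the second form of the channel subunit, was the member called higher (0.16), but not without KO replicate 1 or 2 or wild-type replicate 1 or 2 (adjusted p = 0.070 to 0.15).

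Of 30 tested folding genes, 22 were lower and none higher (median -0.38). Txndc5, a disulfide isomerase, read 10.92, 11.12 and 11.04 against 12.85, 12.82 and 12.78 (-1.79, SE 0.070, adjusted p = 9.0e-15). Fkbp11, a peptidyl-prolyl isomerase of secretory cells (-1.69), Txndc11, a thioredoxin domain protein (-1.37), and Hyou1, a large chaperone (-0.83), followed. Hsp90b1 (GRP94) read 12.84, 12.78 and 12.66 against 13.32, 13.17 and 13.27 (-0.49), without overlap. Hspa5 (BiP), the central ER chaperone, was not called: it read 13.37, 13.24 and 13.27 against 13.45, 13.33 and 13.42, which overlapped (-0.10, SE 0.060, adjusted p = 0.19). Calr, a lectin chaperone, was not called either (-0.13).

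Of 19 tested genes of ER degradation, 12 were lower and none higher (median -0.31). Derl3, of the derlin family, read 8.82, 8.87 and 8.12 against 10.33, 10.10 and 10.33 (-1.65, SE 0.31), while Derl2 was at 0.08 and not called. Herpud1 (-0.51), Edem2 (-0.62) and Sel1l (-0.33), which select or retrieve misfolded proteins, were lower. Of 38 genes of N-glycosylation, 21 were lower and 5 higher (median -0.20), with the oligosaccharyltransferase subunits Rpn1 (-0.54), Rpn2 (-0.59), Stt3a (-0.48) and Ddost (-0.45) among the lower and the mannosyltransferase Alg9 (0.35) among the higher.

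Of 39 tested genes of ER to Golgi transport, 19 were lower and 3 higher (median -0.19). The leading member was Sec24d, a cargo adaptor of the COPII coat, which read 7.49, 7.75 and 7.61 in KO zero DOX and 9.56, 9.44 and 9.42 in wild type (-1.86, SE 0.14). Its paralogs did not move together: Sec24a was lower (-0.61), and Sec24b (0.22) and Sec24c (0.16) were higher. The last of these calls was lost without KO replicate 2 (adjusted p = 0.060), and that of Sec24b without KO replicate 3 (0.052), wild-type replicate 1 (0.084) or wild-type replicate 2 (0.056). Lman1 (ERGIC-53), a cargo receptor (-1.02), Surf4, another (-0.78), and the retrieval receptor Kdelr2 (-0.38) were lower. The COPI coat subunits Copa (-0.00), Copg1 (0.02) and Copz1 (0.01) were not called.

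**Figure D2:**
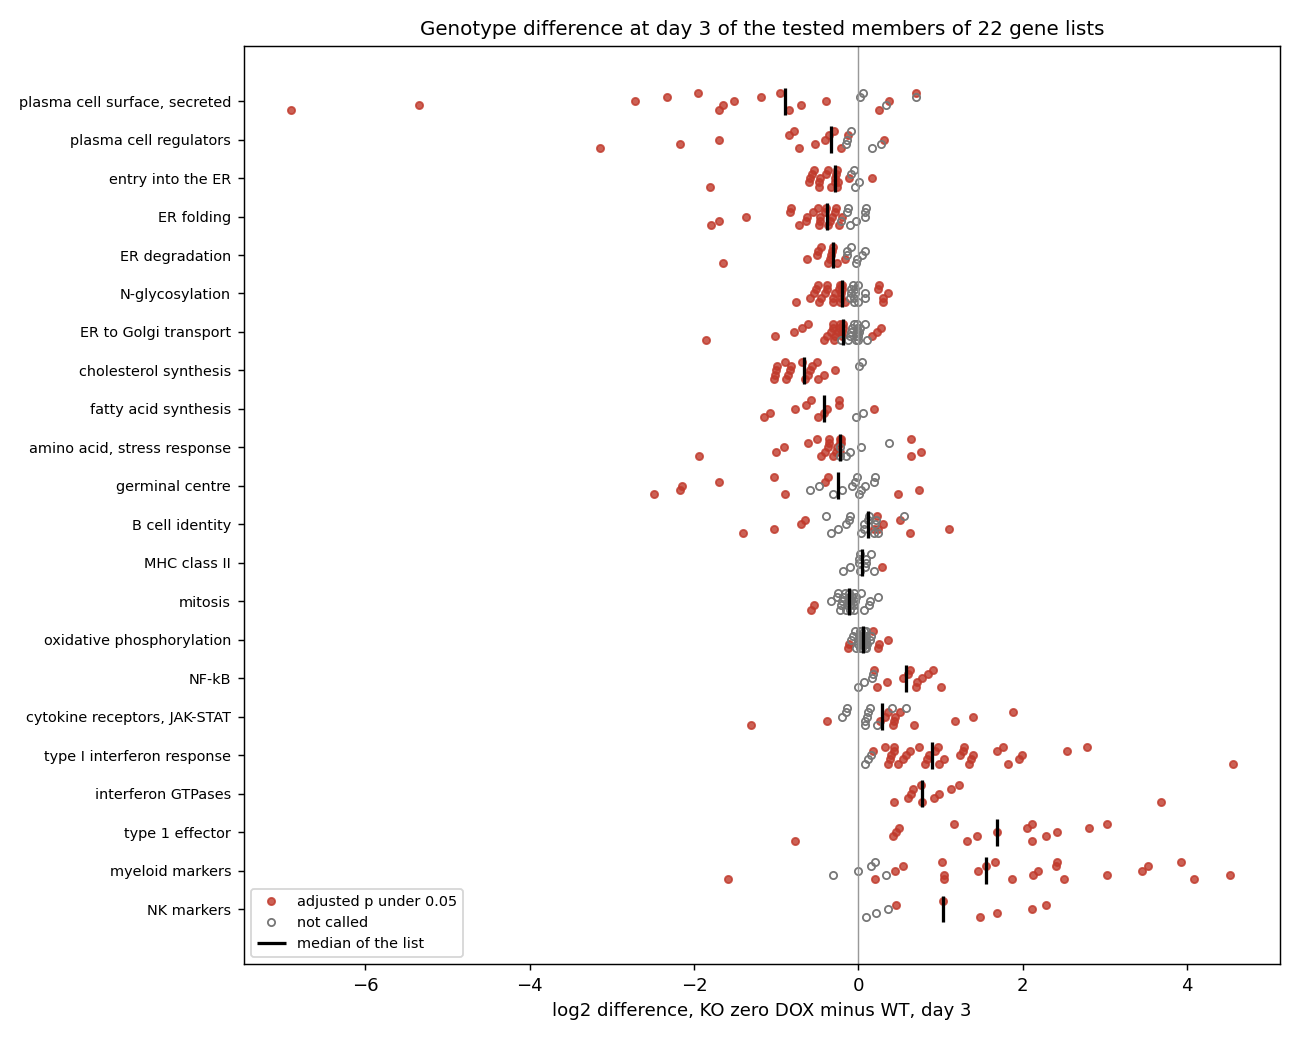
Each point is 1 tested gene of a list, placed by its log2 difference of KO zero DOX minus wild type at day 3 (horizontal axis). Filled points passed the test, open points did not, and the black bars are list medians. The secretory, lipid and amino acid lists lie left of 0, and the NF-kB, interferon, type 1 effector, myeloid and NK lists lie right of it.

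Promoters of the folding and degradation genes were searched for the ER stress response element, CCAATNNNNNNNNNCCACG on either strand, which ATF6 and XBP1 are known to bind with NF-Y. The windows run from 250 bases before to 50 bases after the RefSeq start of each gene. The element was found in 0.119% of 32851 promoters and in 0.152% of 9852 tested genes that have one. It was found in 8 of 25 folding genes with a window (32.0%) and in 2 of 16 degradation genes (12.5%). Windows of 4 called genes that differed by unequal amounts are shown, with the element in capitals, so that the sequence can be set beside the values. They lie at chr10:75893148-75893447, chr15:88819396-88819695, chr14:118937682-118937981 and chr12:17266339-17266638 of GRCm38.p6, all on the plus strand. Derl3 differed by -1.65, Creld2, a disulfide isomerase-like protein, by -0.64, Dnajc3 (p58IPK), a cochaperone, by -0.55, and Pdia6, a disulfide isomerase, by -0.47. The element begins at -156 in Derl3, -126 in Creld2, -105 in Dnajc3 and -98 in Pdia6, counted from the start site.
Derl3: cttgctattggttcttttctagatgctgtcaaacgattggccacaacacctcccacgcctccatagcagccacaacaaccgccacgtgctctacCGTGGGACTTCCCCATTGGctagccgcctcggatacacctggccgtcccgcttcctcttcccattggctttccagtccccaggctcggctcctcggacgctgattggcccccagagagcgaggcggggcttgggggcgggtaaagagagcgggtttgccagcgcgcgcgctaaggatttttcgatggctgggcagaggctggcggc
Creld2: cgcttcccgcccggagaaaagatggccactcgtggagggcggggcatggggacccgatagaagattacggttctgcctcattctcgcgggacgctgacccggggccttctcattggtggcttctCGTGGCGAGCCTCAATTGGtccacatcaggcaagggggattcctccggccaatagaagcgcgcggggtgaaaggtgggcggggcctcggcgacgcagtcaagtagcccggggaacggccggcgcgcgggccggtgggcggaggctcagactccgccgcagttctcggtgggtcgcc
Dnajc3: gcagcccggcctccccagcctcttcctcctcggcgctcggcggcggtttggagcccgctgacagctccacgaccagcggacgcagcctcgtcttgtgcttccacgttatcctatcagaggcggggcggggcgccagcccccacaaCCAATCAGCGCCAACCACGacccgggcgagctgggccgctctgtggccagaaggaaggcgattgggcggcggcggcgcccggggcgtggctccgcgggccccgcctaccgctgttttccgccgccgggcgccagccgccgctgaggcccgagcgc
Pdia6: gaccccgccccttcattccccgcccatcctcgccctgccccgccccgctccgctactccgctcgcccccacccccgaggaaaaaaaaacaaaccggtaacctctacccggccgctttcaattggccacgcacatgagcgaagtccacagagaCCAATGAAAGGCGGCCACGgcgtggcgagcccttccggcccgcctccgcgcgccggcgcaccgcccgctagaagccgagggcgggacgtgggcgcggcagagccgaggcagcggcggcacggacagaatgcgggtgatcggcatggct

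Genes with the element were found on both sides of the threshold: Hspa5, Calr and Ero1b hold it and were not called, and Txndc5 and Fkbp11, which led the list, are not among the 8. A match describes these letters only. The composite element of ETS factors and IRF4, searched as GGAANNGAAA on either strand, was found in 2.72% of all promoters. It was found in 1 of 15 plasma cell regulators with a window (6.67%) and in 0 of 14 genes of the plasma cell surface and secretion.

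Genes of lipid and amino acid synthesis were lower as well. Of 20 tested genes of cholesterol synthesis, 18 were lower and none higher (median -0.67). Sqle (squalene epoxidase) read 10.73, 10.60 and 11.16 in KO zero DOX and 11.94, 11.99 and 11.66 in wild type (-1.03, SE 0.13). Lss, which closes the sterol rings (-1.02), Nsdhl, which removes a methyl group from sterols (-0.99), and Insig1, the sterol-sensing partner of SCAP (-0.89), were lower, and Srebf2, the transcription factor of the pathway, less so (-0.28). Pmvk (0.00) and Ebp (0.04) were not called. Of 13 tested fatty acid genes, 10 were lower and 1 higher (median -0.42), led by Acsl3, which activates fatty acids (-1.15), and the desaturase Fads1 (-1.07). Elovl5, an elongase, was the member called higher (0.18). In KO replicate 3, the female array, Sqle, Lss and Fads1 each read higher than in the other KO arrays and still below every wild-type array.

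Of 27 tested genes of amino acid supply and the integrated stress response, 18 were lower and 3 higher (median -0.23). Cth, which makes cysteine from cystathionine, read 7.08, 7.16 and 6.80 against 9.01, 9.16 and 8.70 (-1.94, SE 0.12). Psph, of serine synthesis (-0.51), Chac1, a glutathione-degrading enzyme (-0.91), and Slc7a5, a transporter of large neutral amino acids (-0.61), were lower. Atf4, the transcription factor of the response, differed by -0.21 (adjusted p = 0.012), which was not called without wild-type replicate 2 (adjusted p = 0.067). Ddit3 (CHOP) and Atf5, which lie in the same response, were higher (0.64 each), and so was the interferon-inducible Wars (0.76). Of 17 tested glycolysis genes, 8 were lower and 2 higher, led by Aldoc (-1.36), the glucose transporter Slc2a3 (-0.97) and Pdk1 (-0.87). Of 33 tested genes of oxidative phosphorylation, 4 were higher and 2 lower, and the median was 0.051.

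Of 22 tested germinal centre genes, 8 were lower and 2 higher, with a median of -0.25, where 15.8% and 19% of all genes were lower and higher. Neil1, a DNA glycosylase, read 8.52, 8.50 and 8.22 in KO zero DOX and 10.93, 10.87 and 10.90 in wild type (-2.49, SE 0.11). Mybl1 (A-MYB), a transcription factor of dividing germinal centre cells, read 7.39, 7.40 and 7.37 against 9.70, 9.46 and 9.53 (-2.17, SE 0.15). Gcsam, a signalling adaptor of germinal centre cells, read 6.39, 6.17 and 6.50 against 8.48, 8.54 and 8.49 (-2.15, SE 0.17). Tbc1d4, a regulator of glucose transporter traffic, was lower too (-1.70). Bcl6, the repressor that defines germinal centre cells, was not called (-0.31, adjusted p = 0.27), although its KO arrays (11.21, 11.27 and 11.51) lay below those of wild type (11.56, 11.70 and 11.65). S1pr2, a receptor that confines cells to the follicle, was lower (-0.37), and Fas (-0.08), Ezh2 (0.03) and Lmo2 (-0.04) were not called, though with a sex term Lmo2 was called higher (0.34).

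Of 25 tested genes of class switching and DNA repair, 9 were lower and 4 higher. Of these, Xrcc5, of the Ku end-binding complex (-0.42), Ung, which removes uracil from DNA (-0.41), and Polh, an error-prone polymerase (-0.41), were lower. Trp53bp1 (0.41) and Atm (0.53), of the response to DNA breaks, were higher.

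Of 27 tested transcripts of B cell identity, 7 were higher and 4 lower (median 0.11), a share near that of all genes. Cd72, an inhibitory coreceptor, read 12.74, 12.86 and 12.83 in KO zero DOX and 11.56, 11.68 and 11.87 in wild type (1.10, SE 0.12). Pax5, the keeper of B cell identity that BLIMP1 represses, read 10.56, 10.59 and 10.52 against 9.94, 10.03 and 10.18 (0.51, SE 0.10). Spib, an ETS factor and known partner of IRF4, was higher (0.63). Cd24a, a surface glycoprotein (-1.40), Id3, an inhibitor of E proteins (-1.03), and Foxo1 (-0.69) were lower. Cd79a was not called (0.55, adjusted p = 0.052), with 1 KO array at 13.90 and the others at 12.48 and 12.53. Of 12 genes of MHC class II, which plasma cells silence, 1 was called. H2-Ab1 read 14.09 to 14.14 and 14.09 to 14.12, and Cd74 14.05 to 14.12 and 14.05 to 14.09. With the sex term, 6 of the 12 were called higher and 11 of the 27 identity genes. Those counts lean on the KO arrays numbered 3, the only female KO arrays.

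Of 29 tested mitosis genes, 2 were lower and none higher (median -0.11): Cdc20, an activator of the anaphase complex (-0.57, adjusted p = 0.030), and Ncapg, of condensin (-0.53, adjusted p = 0.044). Both calls depended on single arrays: Cdc20 was not called without KO replicate 2 or 3 or wild-type replicate 1 or 2 (adjusted p = 0.061 to 0.10), nor Ncapg without any 1 of the 6 (0.050 to 0.13). Mki67, the proliferation marker, read 12.46, 12.48 and 12.33 against 12.70, 12.47 and 12.76, which overlapped (-0.22, adjusted p = 0.60). With a sex term 6 mitosis genes were called lower. Of 30 tested DNA replication genes, 8 were lower and 3 higher (median -0.069), and the share called was near that of all genes (34.9%). Rfc4, of the clamp loader, was among the lower (-0.64). Without KO replicate 2, 5 were lower, and without wild-type replicate 2, 1 was higher. Of 15 genes of D cyclins and CDK inhibitors, 6 were higher and 1 lower. Cdkn1a (p21) read 10.23, 10.20 and 10.06 against 8.77, 8.49 and 8.99 (1.41, SE 0.16), and Cdkn2b (p15) 8.54, 8.40 and 7.77 against 6.91, 7.05 and 7.12 (1.21, SE 0.22). Ccnd2, the cyclin that follows growth factor signals, was higher as well (0.90). With KO replicate 3 as the only KO array, the called genes named here that were no longer called were Atf4, Cd86, Cdc20, Cdkn2b, Elovl5, Id3, Igha, Igll1, Iigp1, Il2ra, Il6ra, Irf3, Lag3, Ncapg, Pou2f2, S1pr2, Sec24b, Sec24c, Sec61a2, Srebf2 and Ung, with adjusted p between 0.053 and 0.43.

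Interferon-induced transcripts were higher on the arrays that also had higher myeloid and NK sums, whose part was not tested. Of 36 tested genes of the type I interferon response, 33 were higher and none lower (median 0.90). Ifit3, which binds viral RNA with its paralogs, read 11.75, 11.83 and 11.08 in KO zero DOX and 8.95, 8.86 and 8.54 in wild type (2.78, SE 0.29, adjusted p = 8.8e-08). Irf7, the amplifier of interferon production, read 12.37, 12.37 and 12.06 against 10.43, 10.31 and 10.21 (1.95, SE 0.18). Mx1, a GTPase that blocks viruses, read 11.49, 11.48 and 11.11 against 10.35, 10.01 and 9.64 (1.36, SE 0.23). Xaf1, a proapoptotic interferon target, had the highest difference (13.20, 12.60 and 13.06 against 8.47, 8.46 and 8.24, or 23.6-fold), but its other probe set was not called. Parp12 (2.54), Oas2, which makes the activator of RNase L (1.82), Herc6, a ligase for ISG15 (1.76), and Ifih1 (MDA5), an RNA sensor (1.69), were higher. Trim30a (0.08), Irf9, which binds DNA in the interferon signalling complex (0.12), and Dtx3l (0.16) were the members not called.

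All 11 tested interferon GTPases of 18 listed were higher (median 0.77). Gbp2b (GBP1) read 11.53, 11.73 and 11.24 in KO zero DOX and 7.85, 7.82 and 7.79 in wild type (3.68, SE 0.19, or 12.8-fold). Gbp2 differed by 1.22, Iigp1 by 0.97 and Igtp by 0.76, and none of these overlapped. The p200 and Ifitm families were higher in all 8 members tested of 13 listed, but 3 of the 8 passed the filter only through KO arrays, so their number is no support. Ifitm3, which restricts viral entry, read 12.28, 12.34 and 12.06 against 10.29, 9.98 and 9.77 (2.21, SE 0.22). Ifi207, a DNA-binding p200 protein, averaged 9.46 ± 0.42 (SD, n = 3) against 6.31 ± 0.21, without overlap (3.15, SE 0.40).

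The interferon-stimulated response element, searched as GAAANNGAAA on either strand, is the DNA sequence bound by IRF and STAT complexes. It was found in 3.44% of the 32851 promoters and in 3.62% of the tested genes with one. It was found in 11 of 26 type I interferon genes with a window (42.3%), 7 of 8 GTPases (87.5%) and 5 of 7 p200 and Ifitm genes (71.4%). Windows of 4 members from the 3 lists are shown with the matches in capitals, since these genes were among the most changed of their lists. They lie at chr19:34583279-34583578, chr19:34640639-34640938 and chr3:142594597-142594896 on the plus strand and chr1:173741760-173742059 on the minus strand of GRCm38.p6. Ifit3 and Ifit1 hold 2 matches each, beginning at -156 and -122 and at -104 and -85 from the start site, and Gbp2b and Ifi207 hold 1 each, at -137 and -41. Ifit1 (1.99, SE 0.25), a paralog of Ifit3 that binds uncapped RNA, read 10.91, 10.96 and 10.41 in KO zero DOX and 9.01, 8.82 and 8.47 in wild type.
Ifit3: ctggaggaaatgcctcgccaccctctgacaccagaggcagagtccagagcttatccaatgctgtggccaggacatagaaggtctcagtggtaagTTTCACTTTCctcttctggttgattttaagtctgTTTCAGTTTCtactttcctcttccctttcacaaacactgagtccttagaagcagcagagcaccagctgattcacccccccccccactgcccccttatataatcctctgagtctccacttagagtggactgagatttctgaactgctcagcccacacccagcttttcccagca
Ifit1: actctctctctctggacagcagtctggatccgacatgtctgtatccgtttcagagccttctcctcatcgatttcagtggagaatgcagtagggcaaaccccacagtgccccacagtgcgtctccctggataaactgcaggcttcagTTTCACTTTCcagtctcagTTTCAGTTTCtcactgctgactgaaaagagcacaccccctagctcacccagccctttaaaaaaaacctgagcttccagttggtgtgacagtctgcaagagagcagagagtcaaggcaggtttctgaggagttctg
Gbp2b: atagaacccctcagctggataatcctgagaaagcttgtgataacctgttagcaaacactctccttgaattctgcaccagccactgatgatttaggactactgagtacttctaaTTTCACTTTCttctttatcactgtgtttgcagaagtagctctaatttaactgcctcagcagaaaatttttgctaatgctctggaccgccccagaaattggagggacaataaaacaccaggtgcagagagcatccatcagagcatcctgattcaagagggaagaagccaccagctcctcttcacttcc
Ifi207: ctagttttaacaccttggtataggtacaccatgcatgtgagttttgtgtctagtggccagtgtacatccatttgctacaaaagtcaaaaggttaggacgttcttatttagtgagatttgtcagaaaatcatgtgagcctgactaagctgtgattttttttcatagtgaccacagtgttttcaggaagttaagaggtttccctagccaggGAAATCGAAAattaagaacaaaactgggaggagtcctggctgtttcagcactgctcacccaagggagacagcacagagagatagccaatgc

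No window of the 14 NF-kB genes or of the 15 plasma cell regulators held the element, while 2 of 21 myeloid markers did (9.52%).

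Of 10 tested genes in the IRF family list, 6 were higher and none lower, and Irf4 was not called. Irf7 and Irf9 were also named with the type I interferon response above, so the lists are not separate. Irf7 led, followed by Irf1 (0.56), Irf5 (0.44), Irf2 (0.29), Irf3 (0.23) and Irf8 (0.23), the close relative of IRF4 that uses the same partners. For Irf5 another probe set was lower (-0.26, adjusted p = 0.036), and with the mean of a gene's probe sets neither Irf5 nor Irf3 was called (adjusted p = 0.24 and 0.070). Of 14 genes of MHC class I and the immunoproteasome, 9 were higher and 1 lower, by at most 0.61 (Psmb10), among them the proteasome subunit Psmb8 (0.35, not called with the mean of its probe sets, adjusted p = 0.75) and the peptide transporter Tap2 (0.50). B2m, the class I light chain, was not called (0.07).

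Genes of type 1 effector function were higher. They are shared between activated T and NK cells, and the T and NK marker sums given above were higher on the same arrays. The part of T and NK cells in these differences was not tested. Of 15 tested, 14 were higher and 1 lower (median 1.69), and 1 of them, Il18r1, passed the filter only through KO arrays. Tbx21 (T-bet), the transcription factor of type 1 immunity and of some switched B cells, read 10.74, 10.92 and 10.58 in KO zero DOX and 7.92, 7.88 and 8.04 in wild type (2.80, SE 0.17, adjusted p = 1.5e-11). Ifng (interferon gamma) read 11.12, 11.64 and 10.40 against 8.20, 7.98 and 7.93 (3.02, SE 0.33). Gzmb (granzyme B) read 12.10, 12.34 and 11.30 against 9.39, 9.26 and 9.86 (2.41, SE 0.30). Cxcr3, the receptor for interferon-induced chemokines, read 10.07, 10.62 and 10.50 against 8.40, 8.19 and 8.45 (2.05, SE 0.24). Among the KO arrays, Ifng, Gzmb, Prf1 (1.69) and Nkg7 (2.12) were highest in replicate 2 and lowest in replicate 3, and Gzma (2.28) was also lowest in replicate 3. Prf1, Nkg7, Gzma and Eomes are in the NK marker list too, so the NK sum is not a separate measure of them. Il18rap, a subunit of the IL-18 receptor, was the member called lower (-0.77).

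Of 12 tested chemokines, 8 were higher and none lower (median 1.10), with 3 that passed the filter only through KO arrays. Cxcl10, a ligand of CXCR3, read 10.87, 10.90 and 10.09 against 8.60, 7.98 and 8.32 (2.32, SE 0.30), and Cxcl9, another, was higher by 1.82. Ccl22, which attracts CCR4+ T cells, read 12.36, 11.92 and 11.21 against 9.71, 9.55 and 9.43 (2.27, SE 0.33). Ccl6, a chemokine of myeloid cells, read 9.53, 10.75 and 9.89 against 6.02, 5.94 and 5.96 (4.08, SE 0.39).

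Of 16 tested NF-kB genes, 12 were higher and none lower (median 0.57). Nfkb2, the precursor of p52 in the CD40 pathway, read 10.53, 10.47 and 10.25 in KO zero DOX and 9.57, 9.57 and 9.78 in wild type (0.77, SE 0.091). Traf1, an adaptor of TNF receptors, read 11.20, 11.05 and 10.74 against 9.96, 9.97 and 10.03 (1.01, SE 0.12). Relb, the partner of p52 (0.70), Bcl3, an atypical IkB protein (0.90), and the inhibitors Nfkbia (0.54), Nfkbie (0.60) and Tnfaip3 (A20, 0.72) were higher. Rela (0.07), Rel (0.17) and Traf6 (-0.00) were not called. Cd40, the receptor that the cultures were stimulated through, read 11.95, 11.83 and 11.98 against 11.10, 11.12 and 11.12 (0.81, SE 0.11).

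Of 24 cytokine receptor and JAK-STAT genes tested, 11 were higher and 2 lower (median 0.29). Il10ra, of the IL-10 receptor, read 10.41, 10.61 and 10.55 against 9.04, 9.30 and 9.06 (1.39, SE 0.13). Csf2rb2, a beta chain for IL-3 that passed the filter only through KO arrays, read 8.07, 8.26 and 7.71 against 6.08, 6.21 and 6.12 (1.88, SE 0.22). Il6st (gp130), through which IL-6 supports plasma cells, read 8.63, 8.39 and 8.46 against 9.75, 9.90 and 9.77 (-1.31, SE 0.084), and its partner Il6ra was also lower (-0.38), though not without KO replicate 3, wild-type replicate 2 or wild-type replicate 3 (adjusted p = 0.069 to 0.072). Of the receptors for the cytokines added, Il2ra was higher (0.68), and Il4ra (-0.20) and Il5ra (-0.14) were not called. Of 12 tested feedback inhibitors, 7 were higher and 1 lower (median 0.23), where 19% and 15.8% of all genes were. Socs1 (1.22) and Cish (1.07) were among the higher, and Socs2 was the member called lower (-1.04). Of 20 costimulation genes 7 were higher and 4 lower, but 4 were higher without KO replicate 2, and 2 lower without KO replicate 3 or wild-type replicate 2. The higher include Icosl, the ligand for ICOS (1.06), and Cd86 (0.71). Havcr1 (TIM-1) was the lowest of them (-1.45).

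Of 17 tested AP-1 and MAF genes, 9 were higher and none lower. Maf (c-MAF) was highest, at 11.07, 11.29 and 10.92 in KO zero DOX and 7.50, 7.53 and 7.40 in wild type (3.62, SE 0.15). Jun read 11.89, 11.94 and 11.80 against 10.81, 10.95 and 10.75 (1.04, SE 0.12). Batf, the AP-1 partner of IRF4, was higher by 0.34, while Bach2, a repressor of plasma cell genes, was not called (-0.11) and its arrays overlapped.

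Of 27 tested myeloid markers, 21 were higher and 1 lower (median 1.55), but 11 of them had arrays above the table's median only in KO cells. Lyz2 (lysozyme M) read 10.39, 11.82 and 11.17 in KO zero DOX and 7.52, 7.62 and 7.89 in wild type (3.45, SE 0.33). Lyz1, its paralog, read 11.16, 12.45 and 11.87 against 7.11, 7.13 and 7.67 (4.52, SE 0.43), and the shared sequence of the pair means that their signals may not be separate. Chil3, a chitinase-like protein of macrophages, read 9.41, 10.03 and 10.68 against 6.18, 5.66 and 6.49 (3.93, SE 0.40). Clec7a (dectin-1), the receptor for beta-glucans, read 9.98, 10.99 and 10.13 against 6.82, 6.84 and 6.87 (3.52, SE 0.47). Defining markers did not all move alike: Itgam (CD11b) was higher by 1.04 and Mpo by 1.02, whereas Csf1r, the macrophage growth factor receptor, read 8.76, 8.81 and 9.15 against 8.68, 8.68 and 8.88 and was not called (0.16, adjusted p = 0.70). Elane, the neutrophil elastase, was not called either (-0.31). Cd36, a scavenger receptor, was lower (-1.58).

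Of the other cell types, Pf4 and Ppbp, chemokines of platelet granules, were higher by 2.81 and 2.09, while the other 7 tested platelet markers, Itga2b among them (-0.18), were not called. Wild-type replicate 3 read 8.67 for Pf4 and the other wild-type arrays 7.13 and 7.45. Cd3g (1.57) and Cd3d (0.93), of the T cell receptor complex, were higher, and Cd4 (0.11) and Cd8a (0.13) were not called. Mcpt8, a basophil protease, was higher (1.26) but passed the filter only through KO arrays, and Ermap the 1 of 3 tested erythroid markers called (0.39).

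Beyond the lists, the genes with the largest differences included Nod1, a sensor of bacterial peptidoglycan (2.56, SE 0.16), Alox5ap, needed for leukotriene synthesis (3.03), Mmp12, a macrophage metalloproteinase (2.94), and Acod1, which makes itaconate (2.57). Among the lower were Rgs10, a regulator of G protein signals (-2.40, SE 0.36), Pon3, a lactonase (-2.68), Selenop, a selenium carrier (-1.77), and Timd2, a ferritin receptor (-1.86). Map7, a microtubule-binding protein, was called (-1.86, adjusted p = 0.014) on uneven arrays, with KO readings of 9.63, 7.48 and 7.72 against 10.25, 10.25 and 9.92, and not without KO replicate 2 or 3 (adjusted p = 0.087 and 0.061).

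The genotype difference before stimulation was set beside that at day 3, using other arrays. At day 0, 31.5% of genes were called, 13.1% higher and 18.4% lower. Of the 220 genes at least 2-fold higher at day 3, 130 were higher at day 0 (59.1%, and 8.17% of the 1592 higher at day 0), and of the 114 at least 2-fold lower, 60 were lower at day 0 (52.6%, and 2.68% of 2240). At day 1, when 49.6% of genes were called (33.9% higher and 15.7% lower), 193 of the 220 were higher (87.7%, and 4.67% of 4131) and 63 of the 114 lower (55.3%, and 3.29% of 1917). The array labelled KO zero DOX day 1 replicate 2 went against its label: the Irf4 probe set that follows doxycycline read 10.77 on it, and 7.84 and 7.80 on the other arrays of its group. The array labelled low DOX day 1 replicate 2 read 7.69, and the others of that group 11.17 and 10.89. Without both arrays 41.1% of genes were called at day 1, and 175 of the 220 (79.5%) and 58 of the 114 (50.9%) were among them in the same direction. The labels do not say whether cultures of different days shared a mouse. At day 3, KO arrays of the same number and different doses deviated together (r = 0.386 to 0.799 over 9 pairs), and those of different numbers did not (-0.574 to 0.056 over 18). On each day KO arrays numbered 1 and 2 were from males and those numbered 3 from females.

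Jchain, Sdc1 and Crisp3 were already lower before stimulation. Their day 0 differences were -7.05, -2.78 and -4.31, and the change between day 0 and day 3 was not called for any of them (adjusted p = 0.85, 0.13 and 0.18). Bhlha15, Prdm1 and Slpi took another course: at day 0 they stood at -0.04, 0.25 and 0.10 and were not called, and the difference at day 3 minus that at day 0 was -3.11, -1.95 and -2.82 (adjusted p = 3.0e-09, 2.4e-05 and 0.0014). Of the 30 folding genes, 9 were lower and 4 higher at day 0 already (median -0.057). The median level of the list was 11.59 to 11.70 in wild type and 11.48 to 11.61 in KO at day 0, which overlapped. It was 11.59 to 11.66 and 11.47 to 11.57 at day 1 and 12.21 to 12.26 and 11.56 to 11.64 at day 3, without overlap on either day. For 16 of the 30 folding genes the difference became lower between the days and for 1 higher, where 9.95% and 16% of all genes did so.

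Interferon genes changed most between day 0 and day 1. Of the 36 type I interferon genes, 6 were higher and 12 lower at day 0 (median -0.17), 35 were higher at day 1 (median 1.77, and the same count and median without the arrays that went against their labels) and 33 at day 3. Median levels at day 0 were 9.26 to 9.58 in wild type and 9.42 to 9.78 in KO, which overlapped. At day 1 they were 10.03 to 10.68 and 11.77 to 12.19, and at day 3 10.59 to 10.86 and 11.60 to 11.84. Usp18, a brake on interferon receptor signals, went from -0.98 at day 0 to 1.28 at day 3. For 30 of the 36 genes the change between day 0 and day 3 was called higher. Of 27 myeloid markers, 19 were already higher at day 0 (median 1.28). However, 11 of the 27 had arrays above the table's median only in KO cells, so their number is no support. The difference was called higher at day 3 than at day 0 for 9 of the 27 and lower for 3. NF-kB genes changed between the days in 11 of 16 cases, all upward, from a median of 0.026 at day 0. Mitosis genes went from 20 of 29 higher at day 0 to none at day 3.

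**Figure D3:**
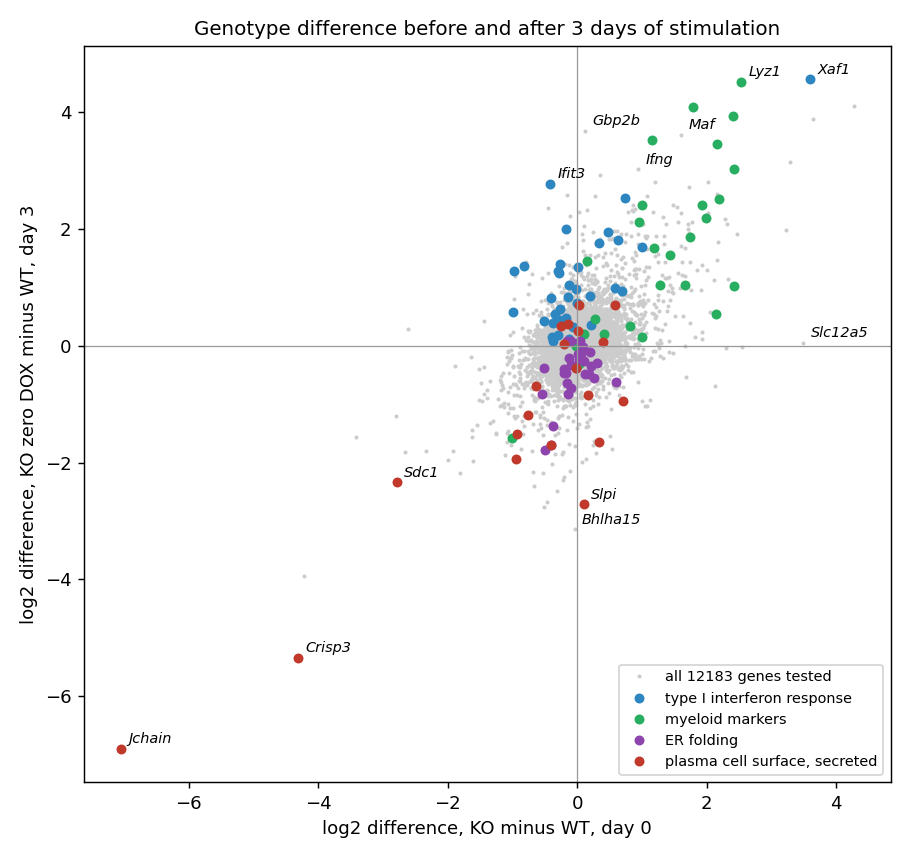
Each grey point is 1 of 12183 genes, placed by its log2 difference between genotypes at day 0 (horizontal) and at day 3 (vertical), with 4 lists in colour. Jchain (-7.05 and -6.90) and Sdc1 (-2.78 and -2.33) differ on both days, while Bhlha15 (-0.04), Slpi (0.10), Gbp2b (0.12) and Ifit3 (-0.41) had small differences at day 0.

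**Figure D4:**
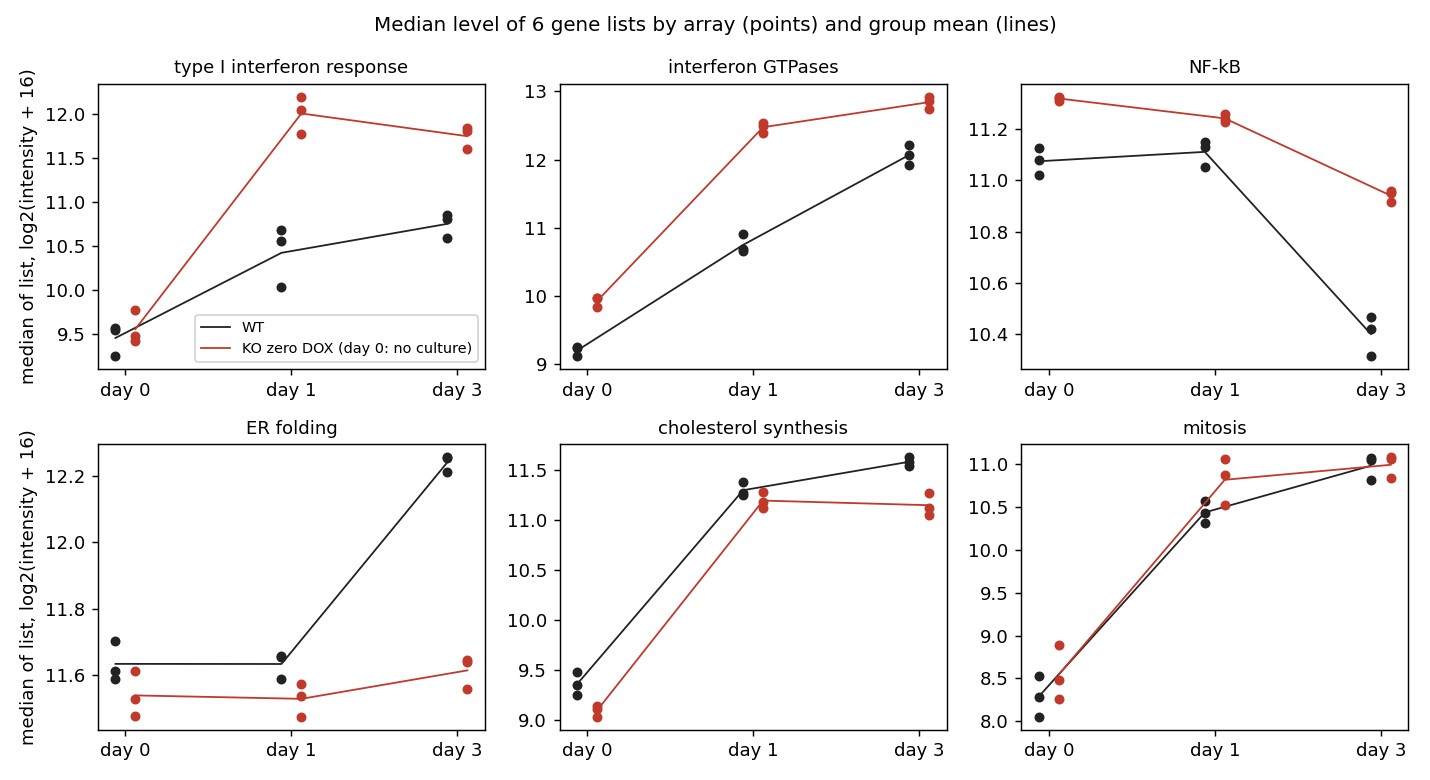
Median log2(intensity + 16) of 6 gene lists on each array (points) and group means (lines) for wild type (black) and KO without doxycycline (red). The folding genes were at 12.21 to 12.26 in wild type and 11.56 to 11.64 in KO at day 3, and the type I interferon genes at 10.59 to 10.86 and 11.60 to 11.84.

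With doxycycline, the means of some of the lower genes reached or passed that of wild type and others did not. The comparisons of low and high DOX with either group share arrays with the one above, so only levels are set side by side. Jchain stood at a mean of 6.55 in KO zero DOX, 12.96 with low DOX, 13.49 with high DOX and 13.45 in wild type. Prdm1 means in the same order were 7.76, 10.08, 10.96 and 9.47, and Bhlha15 means 6.17, 9.85, 10.85 and 9.31, so with high DOX both means lay above wild type. Sec24d did likewise, at 7.62, 9.78, 10.78 and 9.47.

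Several genes stayed below wild type at each dose, among them Neil1, Gcsam, Tbc1d4, Mybl1 and S1pr2, named above with the germinal centre genes. Neil1 means were 8.41, 9.88 and 10.39 at zero, low and high DOX against 10.90 in wild type, so it came near. Gcsam means were 6.35, 6.29 and 6.39 against 8.50, and Tbc1d4 means 8.01, 8.09 and 8.30 against 9.71. Mybl1 stood at 7.39, 7.98 and 7.82 against 9.56, and Crisp3 at 4.85, 5.55 and 6.02 against 10.19. Parm1, a mucin-like protein, stood at 8.85, 7.84 and 7.50 against 10.67, and Crhbp, which binds corticotropin-releasing hormone, at 7.72, 6.81 and 6.33 against 9.56. The means of Parm1 and Crhbp were lower with the drug than without it. Among the higher genes, Gbp2b went from 11.50 at zero DOX to 9.61 and 7.67, and 7.82 in wild type, while Xaf1 stayed at 12.95, 12.56 and 12.31 against 8.39. Tbx21 also stayed up, at 10.75, 10.84 and 10.14 against 7.95, and Ifng did not (11.05, 9.63 and 7.96 against 8.04). Lyz2 was lower at each higher dose, at 11.12, 9.58 and 7.79 against 7.68 in wild type.

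**Figure D5:**
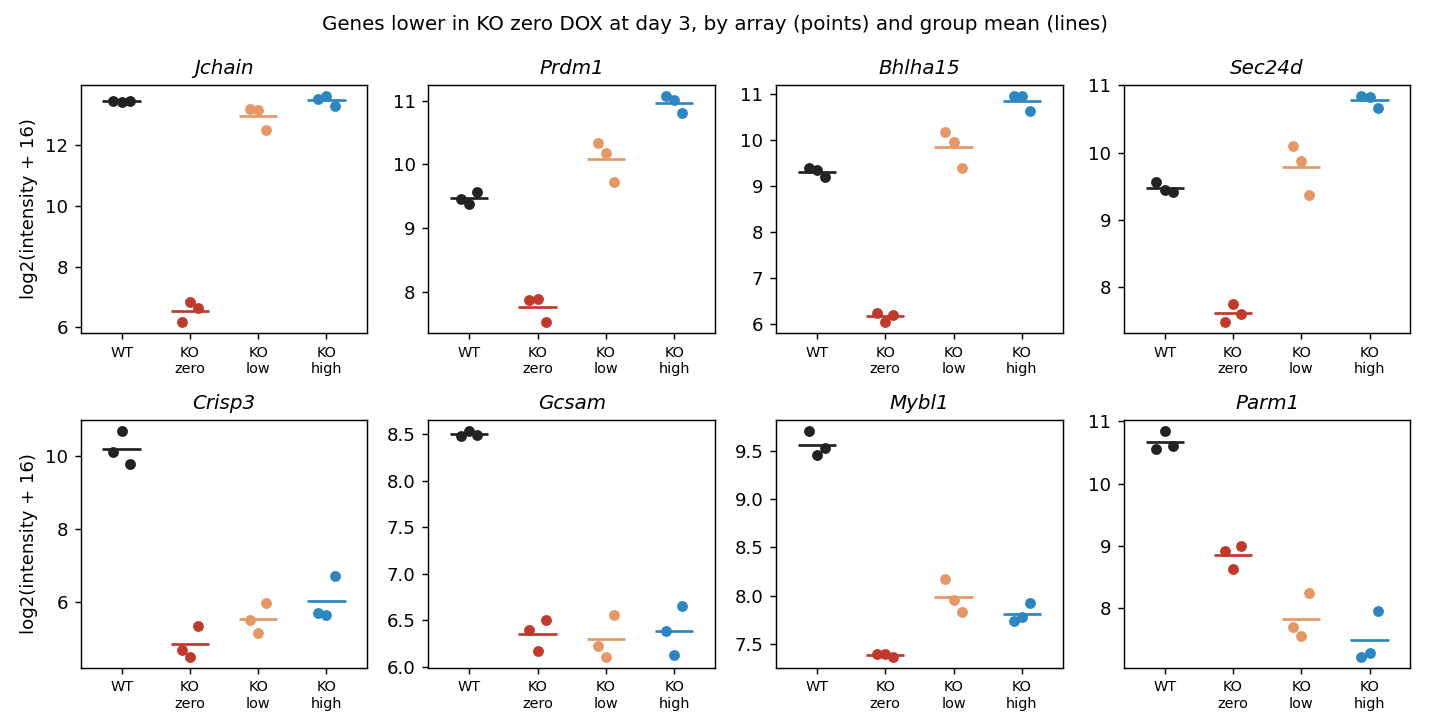
log2(intensity + 16) of 8 genes on each day 3 array (points), with group means (lines), for wild type and for KO with zero, low (16 ng/mL) and high (100 ng/mL) DOX. The upper 4 genes (Jchain, Prdm1, Bhlha15, Sec24d) are at or above the wild-type level with high DOX, and the lower 4 (Crisp3, Gcsam, Mybl1, Parm1) lie below it at each dose.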

How the data were processed

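The authors deposited 1 table of normalized intensity values from Affymetrix mouse expression arrays. Per the labels, values were normalized in D-Chip from perfect-match probes, and MAS5 is named without a role in the submitters' processing notes. The deposited intensity values are linear and were taken as log2(intensity + 16). Probe sets above the table's median (188) on at least 3 of 30 arrays were kept. Each gene with 1 symbol was read by its probe set of highest mean, which left 12183 genes. Symbols come from GEO's platform annotation, updated through RefSeq for 34741 of 34945 probe sets. limma 3.58.1 (R 4.3.3) fitted 1 mean per group over 30 arrays, with 10 groups of 3 and 20 residual degrees of freedom, with Benjamini-Hochberg adjustment over all genes. Replicates were separate mice. No exact permutation test was used, since 0.1 is the smallest p it can give here. The number of arrays limits the precision. Sex was read from Xist and Y-linked probe sets.

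Named genes are the 25 largest non-overlapping changes each way, any member of the gene lists, and the 10 largest each way for each difference between days. The members and lists were chosen with earlier results of these data known, so list counts are descriptions. The fit was tested on simulated data. Alternatives covered the fit, array weights, normalization, pseudocount, filter, probe set rule, sex and each replicate left out. Promoter windows are RefSeq's on GRCm38.p6.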

Additional observations from a re-analysis of the deposited data

Results flagged for a closer look

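The difference between genotypes was not the same on each day, by limma's test of the difference between days. It changed between day 0 and day 3 for 3156 genes, or 25.9% of those tested (adjusted p under 0.05). The log2 difference (KO zero DOX minus wild type) at day 3 minus that at day 0 was most positive for Gbp2b (3.56), Mmp12 (3.19), Ifit3 (3.19), Ighg3 (2.91), Ifit1bl1 (2.80), Gpnmb (2.75), Clec4e (2.58), Clec7a (2.37), Cblb (2.33) and Acod1 (2.30). It was most negative for Slc12a5 (-3.44), Bhlha15 (-3.11), Cd5l (-2.82), Slpi (-2.82), Mdm1 (-2.58), Hk2 (-2.34), Selenop (-2.31), Fam171a1 (-2.26), Pon3 (-2.21) and Il1r2 (-2.21). Of these, Slc12a5, Mdm1, Hk2, Cd5l and Il1r2 were not called at day 3 (0.05, -0.03, -0.04, -0.69 and -0.53) and were higher in KO cells at day 0 (3.49, 2.55, 2.30, 2.13 and 1.68). Ighg3 was likewise not called at day 3 (0.29) and was lower in KO cells at day 0 (-2.62).

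Between day 1 and day 3 the difference changed for 3557 genes (29.2%), and for 2853 without the 2 day 1 arrays that went against their labels. The gene values that follow were fitted with those 2 arrays kept. For Jchain the genotype difference was -7.05 at day 0, -4.16 at day 1 and -6.90 at day 3. The difference at day 3 minus that at day 1 was most positive for S100a6 (2.61), Mmp12 (2.47), Gbp2b (2.32), Ccl6 (1.99), Ccl22 (1.98), Pla2g7 (1.70), Clec4n (1.67), Ppbp (1.62), Nebl (1.59) and Rassf4 (1.54). It was most negative for Bhlha15 (-3.05), Fam171a1 (-2.89), Jchain (-2.74), Pon3 (-2.69), Tbc1d4 (-2.69), Cth (-2.38), Pinlyp (-2.32), Gcsam (-2.31), Neil1 (-2.25) and Endou (-2.10). Gbp2b, Mmp12, Bhlha15, Fam171a1 and Pon3 stand in both groups of genes. Mmp12, Clec7a, Clec4e, Ccl6 and Clec4n are expressed by myeloid cells, whose summed markers were also higher in KO zero DOX, and the part of these cells in the values was not tested.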

How the results depend on the processing

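Against 4247 genes called at day 3, the alternatives that keep all 3 KO and 3 wild-type arrays called between 3548 (only the 6 arrays) and 5563 (array weights), and leaving out 1 array of either group gave 3271 to 4173. Leaving out 1 array gave 2511 to 3757 genes for the change from day 0 and 2556 to 4218 for the change from day 1. With array weights the change from day 1 was called for 6210 genes in place of 3557. With KO replicate 3, the female array, as the only KO array, 2346 were called at day 3, 1258 higher and 1088 lower. This fit and the random block by genotype and replicate number (4376 genes at day 3, and 3939 and 4528 for the changes from day 0 and day 1) were chosen after the data were seen. Same-numbered arrays of the 2 genotypes deviated together by r = 0.086, 0.043 and 0.041, so the numbers do not pair them. With the replicate number as a block 4746, 3684 and 4201 genes were called at day 3 and for the changes from day 0 and day 1. With a sex term 4393 were called, 3678 of them shared, and B cell identity genes called higher went from 7 to 11. With quantile normalization 46.7% of calls were higher in place of 54.6%. With a sex term the sign of Lmo2 turned (0.34). Sex cannot be told apart from genotype within KO replicates 1 and 2. The sex term sets KO arrays numbered 1 and 2 against those numbered 3, so it cannot separate sex from other differences between these replicates.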
